A study of Mus musculus with 6 samples.

Results

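The 83 genes described here encode proteins of the cytosolic ribosome, 32 of the small (40S) and 51 of the large (60S) subunit, out of 54532 genes in the tables. They were chosen by name: protein-coding genes called Rps or Rpl with a number, at most 1 further letter (a, x, y or l) and further digits, together with Rplp0, Rplp1, Rplp2 and Rpsa. The S6 kinase genes, whose symbols begin with Rps6k, were left out. The cells were macrophages grown from the bone marrow of C57BL/6 mice, and their total RNA was sequenced. One group had been transfected with an siRNA against Cxcr4, the receptor of the chemokine CXCL12 (siCXCR4), and the other with a negative-control siRNA (siNC). Both groups had then received lipopolysaccharide (LPS), which activates macrophages through TLR4, at 100 ng/ml for 12 hours, so no level below describes a resting macrophage. The labels name 3 samples per group, but the table of siNC replicate 3 repeats siNC replicate 2 read for read as counts. These tables hold equal reads in all 19072 genes with reads, so they count as 1 sample, which leaves 2 siNC and 3 siCXCR4 libraries. Where single libraries are listed below, the order is siNC replicates 1 and 2, then siCXCR4 replicates 1, 2 and 3.

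The small subunit reads the messenger RNA and the large subunit joins amino acids, and each is assembled in the nucleolus from ribosomal RNA and 1 copy of nearly every protein. Because the proteins are needed in equal numbers, their genes are usually expressed together. Their mRNAs belong to a class called TOP mRNAs, which begin with a C and a run of pyrimidines and whose translation depends on the kinase mTORC1 and the binding protein LARP1. Most of the mRNAs are short and abundant, and mammalian genomes carry many processed pseudogenes of them, intronless copies made by reverse transcription.

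The libraries held 18890751 to 21780840 reads in genes. Cxcr4 itself was at 41.3 and 42.1 FPKM in siNC and at 31.1, 36.2 and 32.7 FPKM in siCXCR4, where FPKM is reads scaled to the length of the gene and to the reads of the library. Every siCXCR4 library was under both siNC libraries, by a log2 fold change of -0.32 (SE 0.0704), which missed the threshold over all genes (limma adjusted p = 0.457) and gave p = 0.1 in a two-sided exact permutation test, the smallest that 2 libraries against 3 allow. Of 9943 genes tested by limma, 0 passed an adjusted p under 0.05 (352 were lower and 577 higher with p below 0.05 unadjusted), against 17 by edgeR and 28 by DESeq2 on whole reads worked back from the FPKM. Macrophage markers were high in every library (9 of 9 genes tested, summed to between 4155 and 4531 FPKM). Markers of B cells, NK cells, mast cells and erythroid cells summed to at most 1.05 FPKM per library, with Eomes and Tpsb2 among the genes at 0, and those of dendritic, T, stromal, endothelial and megakaryocyte cells to between 1.13 and 14.7 FPKM. Among these, T cell markers did not overlap between groups, at 2.33 and 1.94 FPKM in siNC and 3.08, 3.09 and 2.42 FPKM in siCXCR4, with 1 of 7 tested. NK cell markers, with 0 of 5 tested, did not overlap either and were lower in siCXCR4. They were at 0.741 and 0.771 FPKM in siNC and 0.713, 0.732 and 0.506 FPKM in siCXCR4. Neutrophil markers summed to 109 and 105 FPKM in siNC and to 99.6, 89.7 and 84.2 FPKM in siCXCR4, so the groups did not overlap; 5 of 8 were tested and S100a9 was the highest. Their part in the differences below was not tested. Since the labels name no separate animals or cultures for the replicates, p-values reflect the spread among these samples alone, and that spread may be technical.

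Of the 83 ribosomal protein genes, 79 had a mean of at least 1 FPKM and were tested. Their mean levels ran from 2.73 FPKM (Rpl13a) to 472 FPKM (Rplp1), with a median of 65.7 FPKM against 6.68 FPKM over all genes tested. The 60S gene of the highest level was Rplp1, followed by Rplp0 (364 FPKM) and Rpl19 (351 FPKM). Rplp0, Rplp1 and Rplp2 form the stalk that recruits elongation factors to the ribosome. Among 40S genes the highest were Rps3a1 (332 FPKM), Rps4x (197 FPKM) and Rps6 (191 FPKM), the last of which encodes the substrate of the S6 kinases. These levels divide by the length in the tables, which counts all annotated exons of a gene and not 1 mRNA. That length was on median 2.02 times, and for Rpl35a 7.18 times, the length of the gene's principal mRNA, so FPKM understates such genes and the order of levels is an order on this scale only. All reads of the 83 genes together made up 1.40% and 1.33% of the reads in siNC and 1.21%, 1.33% and 1.12% in siCXCR4. The share in siCXCR4 replicate 2 was as high as in siNC replicate 2, so the groups overlapped in it, while siCXCR4 replicates 1 and 3 lay below both siNC libraries. In bulk RNA, fewer cells with a given mRNA and less of it per cell cannot be told apart.

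The ribosomal protein genes as a whole were slightly lower in siCXCR4. Of the 79 tested, 75 had a log2 fold change below 0 and 4 above (Rps27a, Rpl17, Rpl24 and Rpl7l1, the last below 0 under other scalings), where 43.6% of all 9943 genes tested were below 0. The median log2 fold change (siCXCR4 minus siNC, from log2 of FPKM + 1) was -0.16 for the members, a level 10.6% lower, and 0.015 for all genes tested. No member passed the test singly: the lowest adjusted p was 0.389, for Rps28. At an unadjusted p under 0.05, 16 members were lower and none (0) higher, against a background of 3.54% of all genes lower and 5.80% higher. In 25 members every siCXCR4 library lay below both siNC libraries, and in 0 above; the background was 9.92% of genes below and 17.9% above. By edgeR, 38 members were lower at an unadjusted p under 0.05 (background 5.27%) and 1, Rps28, passed at an adjusted p of 0.0412 (background 0.133%), a call lost with siNC replicate 1 or 2 or siCXCR4 replicate 1 or 3 left out. DESeq2 called 2 members, Rps27 (adjusted p = 0.000216) and Rpl35a (adjusted p = 0.0427), with a background of 0.398%. Members with a mean of at least 100 FPKM had a median of -0.11 (27 genes, 27 below 0), and the less abundant ones had -0.20 (52 genes, 48 below 0).

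**Figure D1:**
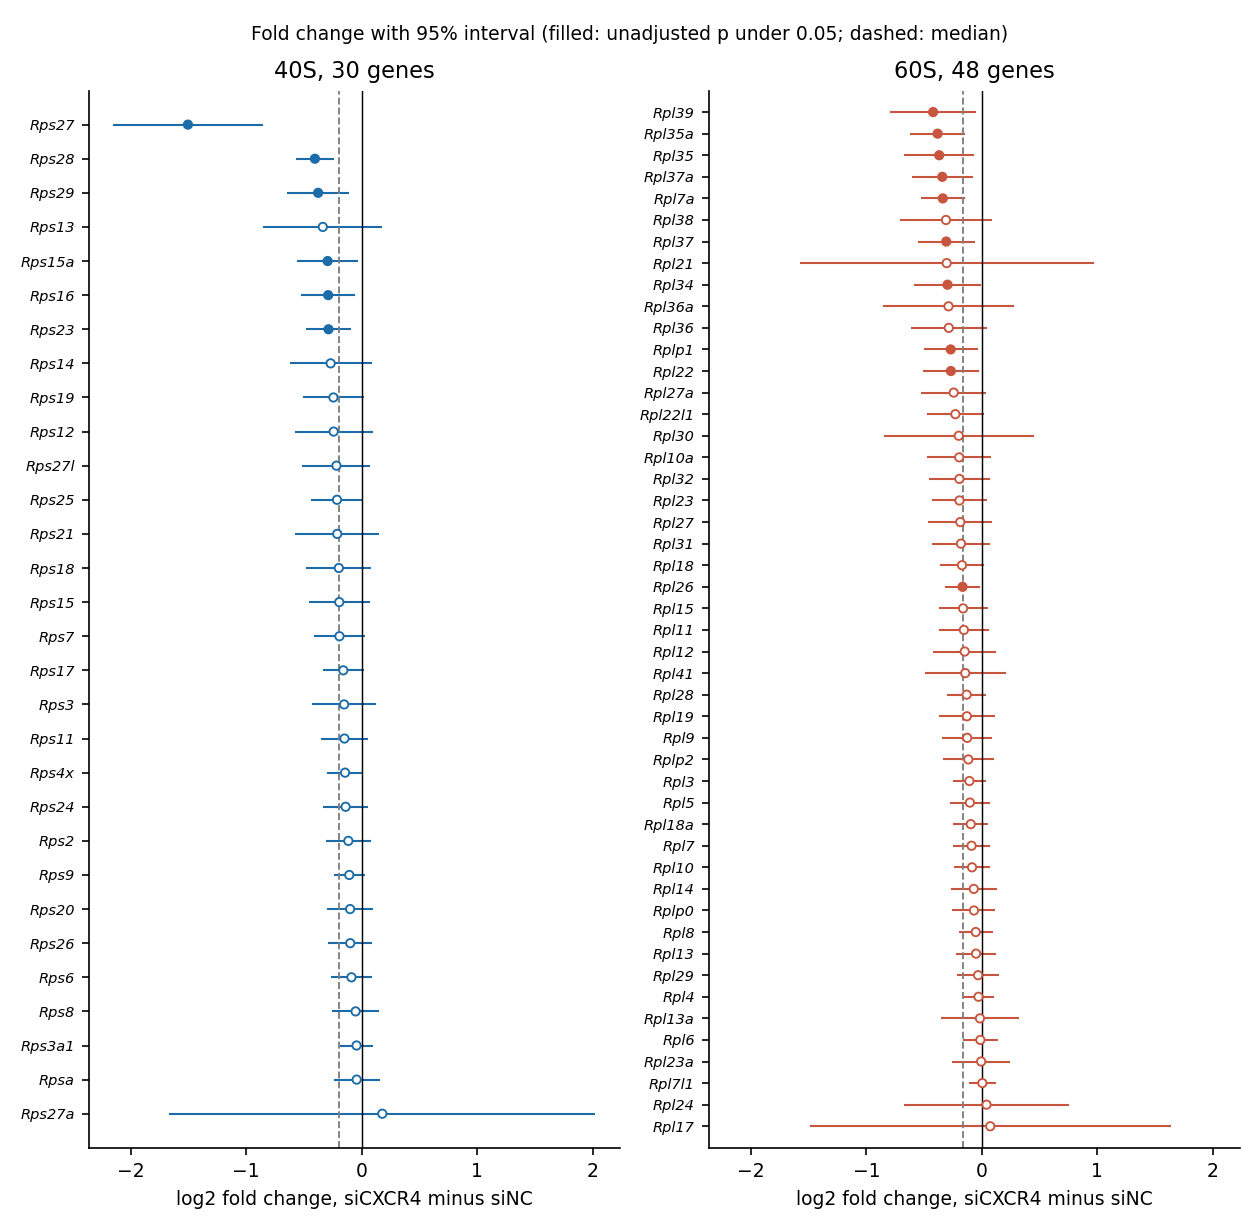
Log2 fold change (siCXCR4 minus siNC, log2(FPKM + 1) scale) with its 95% interval from limma, for 30 genes of the 40S subunit on the left and 48 of the 60S subunit on the right, 78 of the 79 tested; filled points have an unadjusted p under 0.05 and the dashed line is the median over all tested genes of the subunit. All but 4 points lie left of 0, 16 are filled, and the intervals of Rps27a, Rpl17 and Rpl21 are the widest.

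The members moved together between single libraries as well as between groups. The 298 genes named as pseudogenes of a ribosomal protein (its symbol followed by -ps) took 0.0632% and 0.0620% of reads in siNC. In siCXCR4 they took 0.0585%, 0.0560% and 0.0565%. Copies under other names are not among them, so these shares do not cover all copies. RNAs of the mitochondrial genome took 0.954% and 0.949% of reads in siNC and 0.868%, 0.949% and 0.831% in siCXCR4, lowest like the members in siCXCR4 replicates 1 and 3; the part of this in the result was not tested. Set against each gene's own mean over the 5 libraries, the median member stood at 0.14 and 0.042 in siNC and at -0.067, 0.075 and -0.19 in siCXCR4, on the log2 scale. The step between the siNC replicates was therefore of the same order as the difference between groups, and siCXCR4 replicate 2 lay between the siNC replicates. Of the 79 members, 54 had their highest value in siNC replicate 1 and 60 their lowest in siCXCR4 replicate 3. In siCXCR4 replicate 2, 48 members were above siNC replicate 2 and 17 above both siNC libraries, against 9 and 1 members above siNC replicate 2 in siCXCR4 replicates 1 and 3. The result therefore depended on single libraries. Without siCXCR4 replicate 2 the median was -0.24 and 46 members were lower at an unadjusted p under 0.05 (background 6.18%). Without siCXCR4 replicate 3 it was -0.097 with 8 such members (background 2.81%), and without siCXCR4 replicate 1 it was -0.16 with 8 (background 2.85%). Without siNC replicate 1 it was -0.11 with 3 of 79, a share near the background of 2.30%. In edgeR without siCXCR4 replicate 2, chosen after the data were seen, 35 members were called at an adjusted p under 0.05, all lower (background 1.46%), in place of 1. Cxcr4 was at 36.2 FPKM in that library, the highest of the siCXCR4 values; the part of this in the result was not tested.

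**Figure D2:**
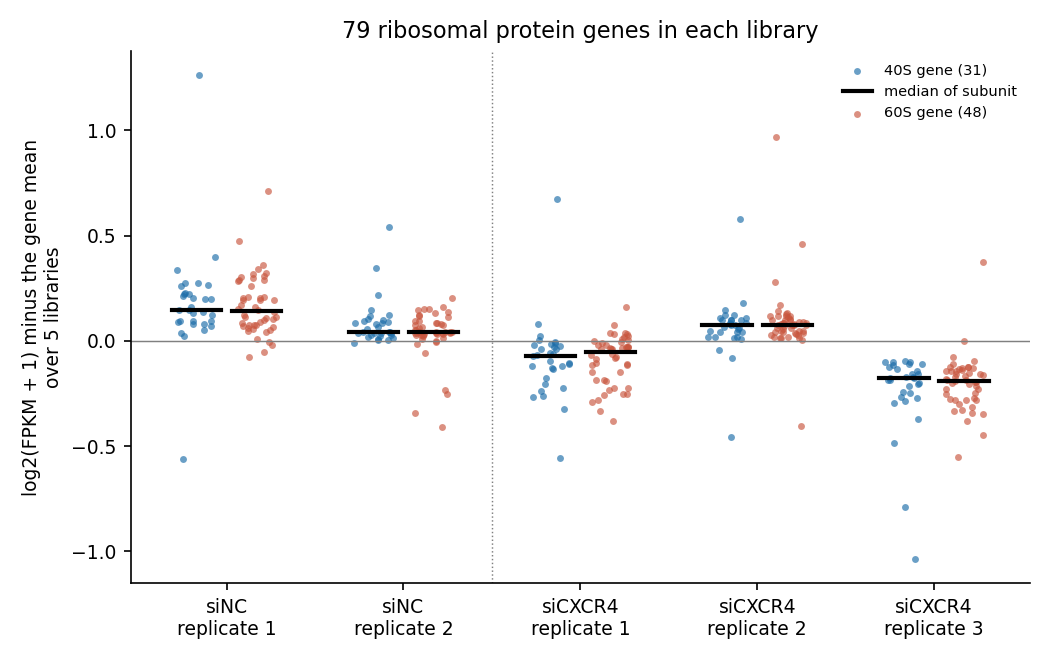
Deviation of each tested gene from its own mean over the 5 libraries (log2(FPKM + 1) scale), 1 point per gene, for 31 genes of the 40S subunit (blue) and 48 of the 60S subunit (red); bars are medians and the dotted line separates siNC from siCXCR4. Both subunits stand highest in siNC replicate 1 and lowest in siCXCR4 replicate 3, with siCXCR4 replicate 2 at the level of the siNC libraries.

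The small and the large subunit had similar medians. The median log2 fold change was -0.19 for the 31 tested 40S genes, of which 30 were below 0, and -0.16 for the 48 tested 60S genes, of which 45 were below 0; the difference of -0.033 was not tested. At an unadjusted p under 0.05, 6 of 31 40S genes and 10 of 48 60S genes were lower (background 3.54%). The median deviations of 40S genes over the 5 libraries were 0.14, 0.041, -0.070, 0.073 and -0.18, and those of 60S genes 0.14, 0.042, -0.052, 0.075 and -0.19, so both subunits ranked the libraries the same way. The mean log2 level of 40S genes exceeded that of 60S genes by 0.20 and 0.24 in siNC and by 0.19, 0.16 and 0.15 in siCXCR4. These groups did not overlap, but the separation came from 1 gene: without Rps27 the differences were 0.22 and 0.28 in siNC and 0.26, 0.23 and 0.22 in siCXCR4, which overlap. Reads on 60S genes per read on a 40S gene, without Rps27, were 1.52 and 1.51 in siNC and 1.51, 1.53 and 1.55 in siCXCR4. In both measures the groups overlapped once Rps27 was set aside.

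Among 40S genes, Rps28 had the lowest p. It encodes a small protein near the exit of the mRNA channel, and lies at chr17:33819027-33824562 on the minus strand (GRCm38). Rps28 was at 21.8 and 21.1 FPKM in siNC and at 14.7, 16.9 and 16.3 FPKM in siCXCR4, with 456 to 705 reads per library. Every siCXCR4 library was again under both siNC libraries, by a log2 fold change of -0.40 (SE 0.0677, limma adjusted p = 0.389). Reads that belong to Kank3, which overlaps Rps28 on the other strand and had 10.4% of its reads, cannot be told apart, since the sources used here do not give the strand setting. Rps28 is not alone in this: 15 members overlap another gene with more than 5 mean reads. Among them is Rpl3, where Syngr1 on the other strand had 17.8% of the reads of Rpl3. Larger shares were found in Rpl18, Rpl28 and Rpl35, picked after their values were seen. There a gene on the other strand had 86.0%, 43.1% and 33.9% of the member's reads.

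Rps29, a zinc-binding protein of the 40S head, was at 84.8 and 66.6 FPKM in siNC and at 55.5, 62.1 and 55.6 FPKM in siCXCR4. Here the siNC libraries were farther apart from each other than siNC replicate 2 was from siCXCR4 replicate 2. Its log2 fold change was -0.38 (SE 0.110, limma adjusted p = 0.494). Rps23, which lines the decoding centre, had 158 and 152 FPKM in siNC and 127, 139 and 115 FPKM in siCXCR4, again without overlap. Its log2 fold change was -0.29 (SE 0.0818, limma adjusted p = 0.488). Rps15a was at 18.7 and 16.6 FPKM in siNC and at 13.1, 16.5 and 13.2 FPKM in siCXCR4, where replicate 2 came within 0.1 FPKM of the lower siNC value.

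The most abundant 40S genes differed little. Rps3a1 was at 343 and 332 FPKM in siNC and at 332, 341 and 310.2 FPKM in siCXCR4, with a log2 fold change of -0.044 (95% interval -0.19 to 0.10). Rps6 was at 203 and 192 FPKM in siNC and at 185, 201 and 172 FPKM in siCXCR4, and the groups overlapped. Rps4x was at 207 and 212 FPKM in siNC and at 194, 198 and 176 FPKM in siCXCR4, without overlap (log2 fold change -0.14, 95% interval -0.30 to 0.012). Rpsa, also known as the laminin receptor, had the smallest change of the 40S genes at -0.043 (95% interval -0.24 to 0.16). Rps19 and Rps24, both mutated in Diamond-Blackfan anaemia, had overlapping groups. The log2 fold change was -0.24 for Rps19 (SE 0.108) and -0.14 for Rps24 (SE 0.0804).

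Among 60S genes the largest change was in Rpl39, a very small protein in the wall of the tunnel through which the new chain leaves. Rpl39 was at 47.3 and 40.6 FPKM in siNC and at 30.4, 39.3 and 28.5 FPKM in siCXCR4. All siCXCR4 values were lower, but replicate 2 was close to siNC replicate 2, and the log2 fold change of -0.42 (SE 0.149) had an adjusted p of 0.512 by limma. Rpl35a, another gene of Diamond-Blackfan anaemia, was at 15.6 and 14.04 FPKM in siNC and at 10.3, 12.7 and 10.5 FPKM in siCXCR4. Its log2 fold change was -0.38 (SE 0.0981, limma adjusted p = 0.486).

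The zinc-binding proteins Rpl37 and Rpl37a ran in parallel. Rpl37a was at 78.2 and 69.4 FPKM in siNC and at 60.01, 64.0 and 50.5 FPKM in siCXCR4. Rpl37 was at 44.6 and 36.9 FPKM in siNC and at 31.2, 35.96 and 30.8 FPKM in siCXCR4. Both were lower in all siCXCR4 libraries, with a log2 fold change of -0.34 for Rpl37a (SE 0.109) and -0.31 for Rpl37 (SE 0.102).

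The 3 stalk genes all had a log2 fold change below 0, and differences among them were not tested. Rplp2 had overlapping groups (log2 fold change -0.12, 95% interval -0.34 to 0.10). Rplp1 was at 561 and 490.3 FPKM in siNC and at 401, 483 and 424 FPKM in siCXCR4, without overlap, and its log2 fold change was -0.27 (SE 0.0972, limma adjusted p = 0.511). Rplp0 was at 380.3 and 367 FPKM in siNC and at 354, 389 and 328 FPKM in siCXCR4, where replicate 2 was the highest of all libraries (log2 fold change -0.069, 95% interval -0.26 to 0.12). Rpl19 was at 365 and 373 FPKM in siNC and at 350.3, 372 and 294 FPKM in siCXCR4, so only replicate 3 stood apart by more than the spread of the others. At the other end, Rpl23a had a log2 fold change of -0.0060 (95% interval -0.26 to 0.25), with the groups interleaved.

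The 3 shortest genes by the length in the tables were Rpl36, Rplp1 and Rpl38, and Rps15a, Rps24 and Rps19 were the 3 longest. Rpl36 was at 184 and 154 FPKM in siNC and at 138, 158 and 119.7 FPKM in siCXCR4. Rpl38 was at 67.2 and 53.9 FPKM in siNC and at 51.6, 54.3 and 40.4 FPKM in siCXCR4. Both had overlapping groups and wide steps between replicates, with a log2 fold change of -0.29 for Rpl36 (SE 0.134) and -0.31 for Rpl38 (SE 0.157). Gene lengths in the tables ran from 383 to 6270 bases, with a median of 1739 bases, and the principal mRNAs of the 83 genes from 345 to 5179 bases, with a median of 799. Across the 79 members the fold change followed the length in the tables little (Spearman rho 0.10) and the mRNA length more (rho 0.44, with 0.41 over the 31 40S and 0.44 over the 48 60S genes). All points share the 5 libraries, so these values describe this set only. Over 8870 other protein-coding genes, rho between fold change and mRNA length was 0.088.

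Short mRNAs outside the ribosome were lower in siCXCR4 too. Of 233 other protein-coding genes with a principal mRNA under 750 bases, 187 were below 0 and the median log2 fold change was -0.12; the 35 members of that size had a median of -0.21, with 33 below 0. From 750 to under 1000 bases the medians were -0.070 for 315 other genes and -0.13 for 19 members. From 1000 to under 1500 bases they were -0.013 for 909 other genes and -0.12 for 15 members. From 1500 to under 2500 bases they were 0.027 for 2180 other genes and -0.14 for 7 members. From 2500 to under 4000 bases they were 0.040 for 2635 other genes and -0.048 for 2 members. At 4000 bases or more, the median was 0.014 for 2598 other genes, and the 1 member, Rps15a, was at -0.29. The members were thus lower than other genes of their size in each of these classes, and other genes moved from below to above 0 with length. The other mRNAs under 750 bases also ranked the libraries as the members did: their median deviations were 0.12 and 0.035 in siNC and -0.044, 0.046 and -0.13 in siCXCR4. When a smooth curve of deviation on mRNA length, drawn through the other genes, was subtracted in each library, the median of the members moved from -0.16 to -0.082, with 67 of 79 below 0. With the curve drawn on the length in the tables it was -0.16. The part of mRNA length, and of whatever else separated these libraries by length, in the difference between groups was not tested.

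**Figure D3:**
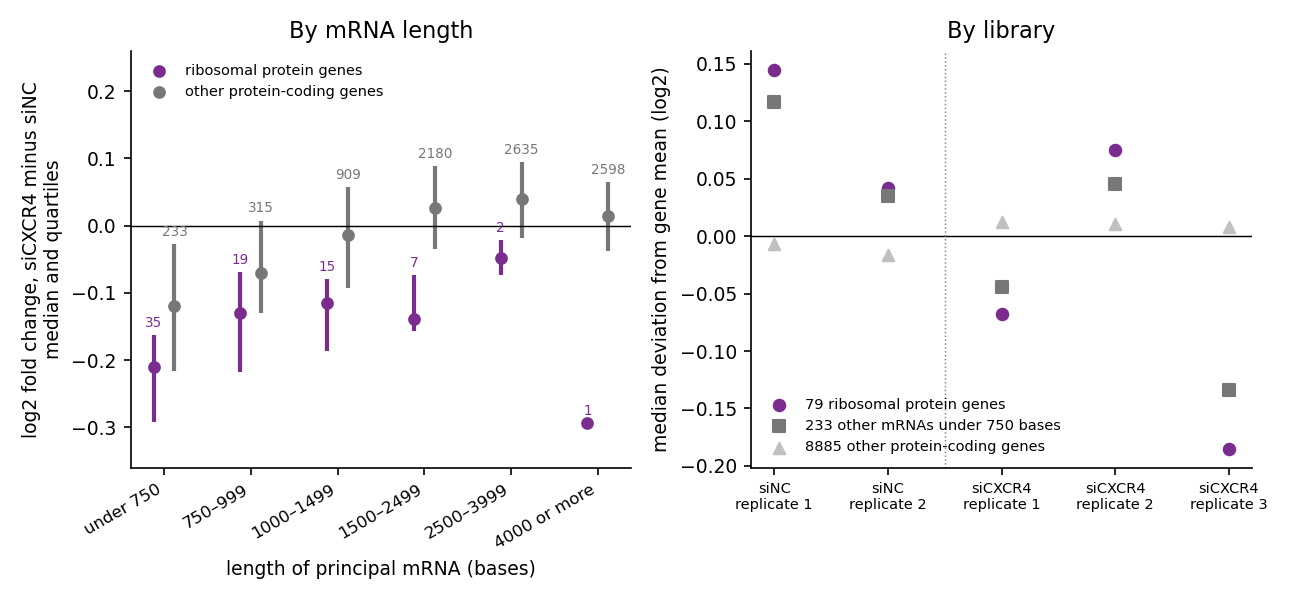
Left, median and quartiles of the log2 fold change (siCXCR4 minus siNC) by length of the principal mRNA in bases, for ribosomal protein genes (purple) and other protein-coding genes (grey), with the number of genes above each bar. Right, the median deviation from the gene mean (log2) in each library for the 79 members, for 233 other mRNAs under 750 bases and for 8885 other protein-coding genes. Short mRNAs of both kinds are lower in siCXCR4, and both rank the 5 libraries in the same order.

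Several members share most of their sequence with near-identical copies. Of the 50-base words in a member's principal mRNA (GENCODE vM21), a median of 52.1% also occurred in transcripts of other genes, and for Rps27 98.6% did. Rps27, a zinc-binding 40S protein at chr3:90212522-90213651, had the largest fold change of all members. It was at 52.7 and 31.6 FPKM in siNC and at 14.2, 15.3 and 11.9 FPKM in siCXCR4, a log2 fold change of -1.504 (SE 0.244, limma adjusted p = 0.438). Its copy Rps27rt at chr9:114982366-114982739, annotated as protein-coding, carries the same 255 coding bases with 0 differences but no introns, and ends in a run of 31 A. Of the 345 bases of the Rps27 mRNA, 341 in a row occur in Rps27rt. The shared coding sequence is shown because no read inside it can tell the genes apart in the spliced RNA; capitals mark the 2 bases on each side of its 3 exon junctions in Rps27, which in Rps27rt are joined in the genome itself.
Rps27 and Rps27rt: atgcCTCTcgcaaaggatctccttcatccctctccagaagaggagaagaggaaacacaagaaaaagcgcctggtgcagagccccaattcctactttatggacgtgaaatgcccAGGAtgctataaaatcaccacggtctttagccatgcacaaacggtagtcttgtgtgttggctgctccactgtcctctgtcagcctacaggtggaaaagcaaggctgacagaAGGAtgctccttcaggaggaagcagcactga

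The reads of the pair differed between groups in opposite directions. Rps27 had 1212 and 649 reads in siNC and 323, 309 and 238 in siCXCR4, while Rps27rt had 238 and 623 in siNC and 674, 888 and 698 in siCXCR4. The step between siNC replicates was already 1212 against 649 reads for Rps27 and 238 against 623 for Rps27rt. With the reads of its 4 copies added, Rps27 had 1450 and 1275 reads in siNC and 998, 1197 and 936 in siCXCR4, and its log2 fold change shrank from -1.504 to -0.33 (SE 0.125, limma adjusted p = 0.524). The call of Rps27 by DESeq2 rests on the reads assigned to Rps27 alone.

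Rpl17 showed the same pattern without a difference between groups. It had 1544 and 824 reads in siNC and 962, 2132 and 725 in siCXCR4, and its processed pseudogene Rpl17-ps10 had 2561 and 2714 in siNC and 2751, 1363 and 1966 in siCXCR4. The library with the most reads on Rpl17, siCXCR4 replicate 2, thus had the fewest on the copy. With all 15 copies the sum was 5695 and 4886 reads in siNC and 5078, 4802 and 3789 in siCXCR4. The log2 fold change moved from 0.073 to -0.17, close to the median of the members, and the within-group SD on the log2 scale from 0.73 to 0.14. Rpl17, Rpl21, Rpl24, Rpl30, Rps27 and Rps27a were the 6 tested members with a within-group SD above 0.3, singled out after their values were seen. With the reads of their copies, only Rpl24 (0.33) and Rps27a (0.73) stayed above 0.3.

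**Figure D4:**
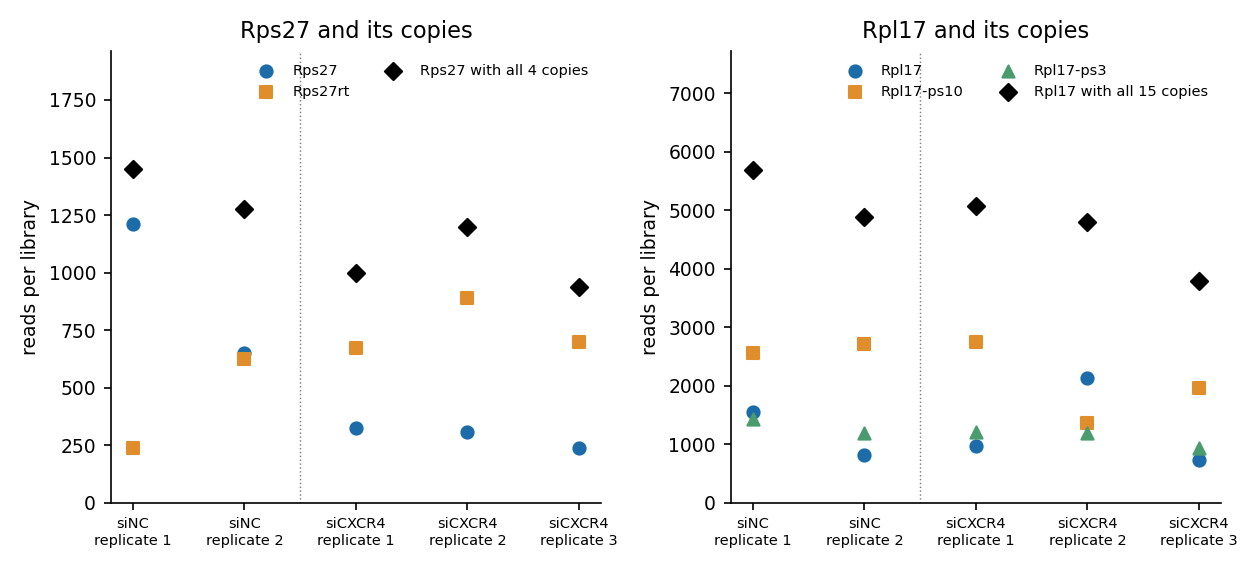
Reads per library of Rps27 (left) and Rpl17 (right), of their largest copies, and of each gene summed with all its copies, 4 for Rps27 and 15 for Rpl17. Single genes and copies change places from library to library, while the sums vary far less.

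Rps27a, a 40S protein made as a fusion with ubiquitin, kept its spread. It had 1293 and 2203 reads in siNC and 3059, 2553 and 797 in siCXCR4, and with its 6 copies 1565 and 2387 in siNC and 3247, 2738 and 1031 in siCXCR4. The siCXCR4 libraries held both its highest and its lowest value, and the interval of its log2 fold change ran from -1.67 to 2.03. In Rps10 the copy held most reads. Rps10, under the filter at 0.726 to 1.03 FPKM, had 35 to 46 reads per library, while Rps10-ps2 on chromosome 16 had 1370 and 1137 in siNC and 1206, 1211 and 892 in siCXCR4. In 5 members, namely Rpl17, Rpl21, Rpl24, Rps10 and Rps27, copies held more reads than the gene when the 5 libraries were summed, though Rps27 had more than its copies in both siNC libraries and Rpl24 in siNC replicate 1 and siCXCR4 replicate 3. Copies added few reads to Rpl13a, the tested gene of the lowest level, with 83 to 145 reads per library alone and 93 to 158 with its 2 copies.

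Adding copies changed single genes more than the set. The median over the 79 members was -0.16 with the copies' reads, with 75 below 0 as before. Rps28 kept a log2 fold change of -0.39 (SE 0.0795). Rpl7a, at 29.1 and 29.1 FPKM in siNC and 21.3, 25.4 and 22.0 FPKM in siCXCR4, moved from -0.34 to -0.17 with 29 copies. Rpl38 moved from -0.31 to -0.18 with 3 copies, and Rps29 from -0.38 to -0.24 with 3. With its copies, Rps29 was at 104 FPKM in siCXCR4 replicate 3, above siNC replicate 2 at 91.9 FPKM. Its groups then overlapped, and its within-group SD rose from 0.16 to 0.23. Members of which under 30% of words are shared had a median of -0.15 (13 genes, 12 below 0), those with 30 to 60% had -0.19 (30 genes, 30 below 0), and those with 60% or more had -0.16 (36 genes, 33 below 0). The 3 classes thus had medians close to that of all members. The lowest class is not free of copies, since it holds Rpl21 (26.2% of words shared), which had fewer reads than its copies.

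**Figure D5:**
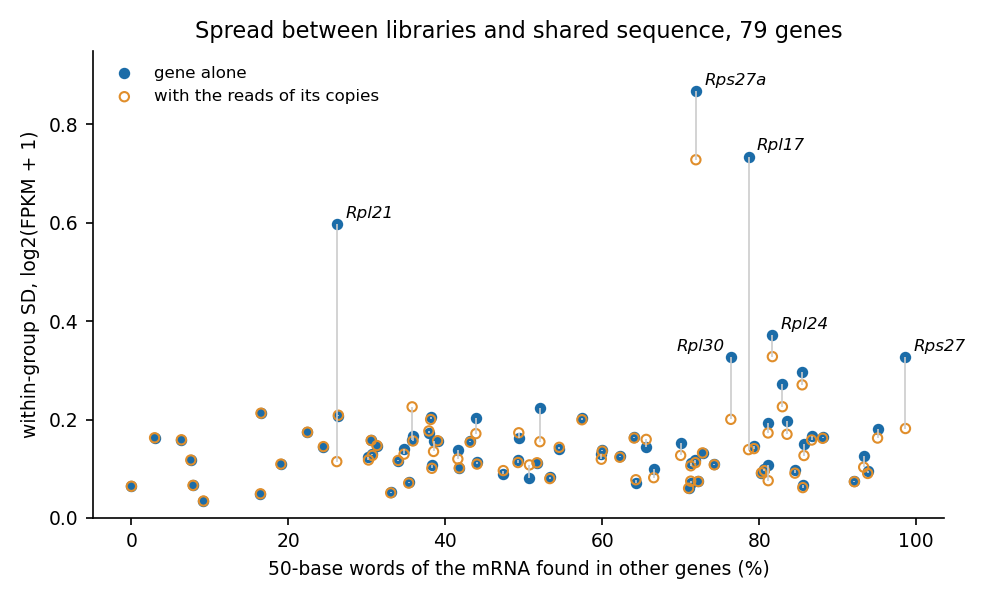
Within-group SD on the log2(FPKM + 1) scale of each of the 79 tested genes against the percentage of 50-base words of its mRNA found in other genes, for the gene alone (blue) and with the reads of its copies added (orange circles). The 6 named genes exceed an SD of 0.3 alone; with copies added, Rpl24 and Rps27a remain above it.

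Paralogs, which replace a ribosomal protein in some tissues, ranged from 0 reads to levels well above the filter. Of 9 listed paralogs in the tables, 5 were tested. Rpl10l, a retrogene of Rpl10 known from testis, had 0 reads in every library, while Rpl10 was at 192 and 186 FPKM in siNC and 179, 189.5 and 167 FPKM in siCXCR4. Rpl3l, the muscle form of Rpl3, had 0 to 4 reads per library, and Rpl3 was at 84.0 and 82.7 FPKM in siNC and 78.5, 81.1 and 72.5 FPKM in siCXCR4. Rpl39l, known from male germ cells, had 4 to 9 reads per library, which is too few to compare groups. Both main forms lay slightly lower in siCXCR4, Rpl3 without and Rpl10 with overlap of the groups.

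Rpl22 and its paralog Rpl22l1 were both present, and both were lower in every siCXCR4 library. Rpl22 was at 22.8 and 22.4 FPKM in siNC and at 16.7, 21.5 and 18.0 FPKM in siCXCR4, with a log2 fold change of -0.27 (SE 0.1003, limma adjusted p = 0.512). Rpl22l1 was at 5.42 and 5.23 FPKM in siNC and at 4.45, 5.06 and 3.75 FPKM in siCXCR4 (log2 fold change -0.23, SE 0.104). Rps27l, a paralog of Rps27 known as a p53 target, was at 34.3 and 28.0 FPKM in siNC and at 23.7, 29.8 and 26.2 FPKM in siCXCR4, which overlap. Rpl7l1 was the steadiest of all members at 22.4 and 22.5 FPKM in siNC and 21.9, 23.2 and 22.4 FPKM in siCXCR4, with a within-group SD of 0.034 on the log2 scale. Its counterpart Rpl7 was at 123 and 119.6 FPKM in siNC and at 114, 122 and 106 FPKM in siCXCR4, with overlapping groups. Rpl36a was at 30.04 and 25.5 FPKM in siNC and at 19.9, 29.9 and 19.1 FPKM in siCXCR4, where replicate 2 stood among the siNC values; its paralog Rpl36al, outside the name rule, stayed under 1 FPKM. Rps4l, a paralog of Rps4x outside the 83 genes, had 6.39 and 5.49 FPKM in siNC and 6.96, 6.18 and 3.38 FPKM in siCXCR4, which overlap.

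The TOP start was looked for in RefSeq promoter windows (GRCm38.p6), which were found for 63 of the 83 genes and hold 75 starts. A C at the start followed by 4 bases that are each C or T was present at 13 of the 75 starts (17.3%), on the gene's own strand, and at 2.51% of 32851 windows of all genes. A run of at least 8 pyrimidines reaching within 5 bases of the start was present at 24 starts (32.0%) and in 9.38% of all windows. The 12 tested genes with a C-led start had a median log2 fold change of -0.20, all below 0, and the 47 tested genes with other annotated starts only had -0.17, with 45 below 0. An annotated start can lie some bases from the one used, so a gene without a match is not shown to lack a TOP start. The windows below, 15 bases before and 15 from the annotated start, show 4 members with a C-led start and 3 members, Rps28, Rpl37a and Rpl39, with no run of 8, chosen because their fold changes are described above. Capitals mark the longest run of C and T that reaches within 5 bases of the start.
Rps27, chr3:90213634-90213663, minus strand: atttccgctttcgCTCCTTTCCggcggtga
Rpl35a, chr16:33056467-33056496, plus strand, 1 of 3 annotated starts: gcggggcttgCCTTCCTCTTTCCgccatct
Rps15a, chr7:118116133-118116162, minus strand: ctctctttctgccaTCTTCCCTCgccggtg
Rps6, chr4:86857353-86857382, minus strand: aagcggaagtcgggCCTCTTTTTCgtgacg
Rps28, chr17:33824548-33824577, minus strand: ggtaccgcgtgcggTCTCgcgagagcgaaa
Rpl37a, chr1:72711245-72711274, plus strand: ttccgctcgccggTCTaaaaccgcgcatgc
Rpl39, chrX:37085208-37085237, minus strand: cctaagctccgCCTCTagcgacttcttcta
Rps6 and Rps27 both carry the C-led start, with fold changes of -0.088 and, copies included, -0.33 on the log2 scale. Runs were also under 8 in Rps23, Rps4x, Rps3a1, Rps19 and Rpl37, so the short runs span members with small and with larger fold changes.

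Other genes of the translation machinery had medians closer to 0. Ribosomal proteins outside the name rule were lower in 3 of 3 tested cases (median -0.13), among them Fau, a 40S protein with a ubiquitin-like leader, at 232 and 212 FPKM in siNC and 191, 225 and 175 FPKM in siCXCR4. Other TOP mRNAs were below 0 in 11 of 14 cases with a median of -0.064, of which 1 was lower with p below 0.05 unadjusted (background 3.54%). Pabpc1, the poly(A)-binding protein and a TOP mRNA, was higher in every siCXCR4 library, at 126 and 132 FPKM in siNC and 142, 137 and 141 FPKM in siCXCR4 (log2 fold change 0.12, SE 0.0501, limma adjusted p = 0.538). Hnrnpa1, another, was lower in every siCXCR4 library (-0.14, SE 0.052). Elongation factors had a median of -0.0025 over 6 genes, and Eef1a1, the most abundant at 1593 and 1674 FPKM in siNC, was at 1683, 1667 and 1592 FPKM in siCXCR4. TOP RNAs that host small nucleolar RNAs were below 0 in 6 of 6 cases, with a median of -0.069 and Snhg6 at -0.22 (SE 0.0878). The first and second of these lists overlap, and Fau and Rack1 are counted in both.

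Ribosome assembly factors showed no common shift, with 25 of 50 below 0 and a median of 0.00068. Their lowest p were those of Nop10 (-0.41, SE 0.110, limma adjusted p = 0.488) and Nhp2 (-0.21, SE 0.0696), parts of the particle that guides pseudouridine formation in ribosomal RNA. Genes of the mTORC1 axis had a median of 0.013 over 13 tested, with 0 at an unadjusted p under 0.05 by limma or edgeR. Larp1, which binds TOP mRNAs, was at 67.2 and 68.6 FPKM in siNC and at 65.7, 68.7 and 70.1 FPKM in siCXCR4. Mitochondrial ribosomal proteins, nuclear-encoded and also mostly short, were below 0 in 56 of 76 cases with a median of -0.052, and with p below 0.05 unadjusted there were 8 on the lower side and 2 on the higher (background 3.54% and 5.80%). Mrpl20 had the lowest p of them, at 12.6 and 12.0 FPKM in siNC and 9.16, 10.97 and 9.04 FPKM in siCXCR4 (-0.32, SE 0.0866, limma adjusted p = 0.488). Differences between lists were not tested.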

How the data were processed

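RNA sequencing was summarised by the authors in 1 table of 54532 genes per sample. In 5 tables the deposited values are FPKM; the file headers give no unit, which was worked out from the values, each a whole multiple of 1 step per library and gene length (100% of values, within a tolerance of 0.05). The table of siNC replicate 3 holds deposited raw read counts. The submitters' processing notes name build mm9, but 81 of 83 members lie where GRCm38 places them, so GRCm38 positions are given. The sources used here do not give the aligner, counting tool, strand setting or handling of reads with several matches.

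The main comparison used limma 3.58.1 in R 4.3.3 (trend and robust estimates, two-sided, Benjamini-Hochberg adjusted p under 0.05) on log2(FPKM + 1) where the mean reached 1 FPKM, taking the entry of highest mean for the 102 symbols listed more than once. The design had been planned for 6 libraries. The whole reads were tested with edgeR 4.0.16 (TMM, quasi-likelihood, robust) and DESeq2 1.42.0. Each test was also run on simulated data with planted changes far larger than the median of the members and no effect of length. That run cannot show how the tests handle changes as small as those reported here. Reads are not independent molecules, so read numbers cover counting error only. Principal mRNAs and their 50-base words came from GENCODE vM21, and a copy is any gene outside the 83 that shares at least 10% of a member's words.

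The members and gene lists were chosen with earlier results of these data known. Genes named are Cxcr4; of the members tested, the 8 of lowest and 2 of highest p, the 3 of highest level in each subunit, the 3 longest and 3 shortest, the largest and smallest fold change of each subunit; all members under the filter; members with a paralog in the tables; and, of the other lists, genes of lowest p or highest level. Others are marked as picked after their values were seen. Alternatives were other scalings, pseudocounts, filters and tests, each library left out, the repeated library counted as a replicate, the replicate number as a block, length curves and added reads of copies. Some genes are not reported here by name; they stay in the counts and medians.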

Additional observations from a re-analysis of the deposited data

How the results depend on the processing

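By limma 0 genes passed an adjusted p under 0.05, and 0 to 2 with 1 library left out; counting the repeated siNC table as a replicate gave 6, edgeR 17 and DESeq2 28. Leave-one-out runs of edgeR, added after the data were seen, gave 5 and 20 calls without siNC replicates 1 and 2, and 0, 312 and 3 without siCXCR4 replicates 1, 2 and 3. Cxcr4 passed in 1 of these, without siCXCR4 replicate 2 (-0.40, edgeR adjusted p = 0.00104). The median of the ribosomal protein genes stayed below 0 under every alternative, between -0.26 and -0.082. Members lower at an unadjusted p under 0.05 numbered 26 after rescaling to the reads in listed genes (background 5.10%) and 25 after quantile normalization (4.20%). By edgeR they numbered 38 (5.27% of 12794 genes) and by DESeq2 37 (1.36% of 23311 genes). The DESeq2 background holds every gene with any read, without a filter on level, so it cannot be set beside the edgeR background. They numbered 3 to 46 with 1 library left out (2.30% to 6.18%), and by edgeR 35 without siNC replicate 2 (4.25%) and 61 without siCXCR4 replicate 2 (8.09%). Members passing an adjusted p under 0.05 numbered 1 by edgeR and 2 by DESeq2; leaving out 1 library, edgeR gave 1 without siNC replicate 1, 3 without siNC replicate 2 and 35 without siCXCR4 replicate 2. The 40S median minus the 60S median, -0.033, became 0.0015 with the curve on gene length subtracted, lay between -0.029 and 0.017 with 1 library left out, and by edgeR was -0.0077 without siNC replicate 1, 0.00996 without siCXCR4 replicate 1 and 0.00099 without siCXCR4 replicate 2. The causes were not tested.

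Of the 30 tested members named by the rules above, 4 with fold changes near 0 changed sign in 26 of 719 values. Members outside those rules, such as Rpl17, Rpl21, Rpl24, Rpl30 and Rps27a, are not in this count. Of them, Rpl17 changed sign with the reads of its copies, from 0.073 to -0.17. Rpl7l1 became -0.022 after rescaling, -0.0011 with median scaling, -0.026 with quantile normalization, -0.013 by edgeR, -0.0070 by DESeq2, and -0.028 and -0.031 with the gene and mRNA length curves subtracted. It was -0.018 without siCXCR4 replicate 2 (range with 1 library left out -0.018 to 0.024), and by edgeR -0.015 and -0.0085 without siNC replicates 1 and 2 and -0.036 and -0.011 without siCXCR4 replicates 2 and 3. Rpl23a became 0.047 and 0.13 with those curves, 0.021 with pseudogene reads, 0.0034 with the reads of copies, 0.074 without siNC replicate 2 and 0.085 without siCXCR4 replicate 3 (range with 1 library left out -0.086 to 0.085), and by edgeR 0.066 and 0.066. Rps3a1 became 0.0028 and 0.0064 with the curves. Rpsa became 0.028 without siCXCR4 replicate 3, and 0.011 by edgeR.

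With the replicate number as a block, 6 members were lower at an unadjusted p under 0.05 (background 2.49%), their median was -0.097, and Rpl23a and Rpsa were at 0.085 and 0.028. The numbers come from the labels, which do not say whether same-numbered libraries share an animal or a day. Deviations of same-numbered libraries correlated at -0.040 and -0.11. With 2 siNC libraries, their deviations mirror each other, so these values cannot show whether the libraries are paired. The fit with the block also sets siCXCR4 replicate 3 aside, for which no siNC library of its own number is left. Sequence shared with copies limits members whatever the depth, among them Rps27, Rpl17, Rpl21, Rpl24 and Rps10, whose copies held more reads. Rpl7a, Rps29 and Rpl38, whose fold changes shrank with copies added, are limited too.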

Other observations

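RNAs of the mitochondrial genome, which encodes the ribosomal RNA of the mitochondrial ribosome, were below 0 in 18 of 27 tested cases and above in 9, with a median log2 fold change of -0.071. Their median deviations over the 5 libraries, 0.062, 0.027, -0.00042, 0.047 and -0.10, rank the libraries as the ribosomal protein genes do. The large mitochondrial ribosomal RNA mt-Rnr2 was at 299.8 and 286 FPKM in siNC and at 366, 355 and 342 FPKM in siCXCR4, so every siCXCR4 library was above both siNC libraries (log2 fold change 0.27, SE 0.0563, limma adjusted p = 0.438). The small one, mt-Rnr1, was at 169 and 162 FPKM in siNC and at 178, 189 and 176 FPKM in siCXCR4, also without overlap (0.13, SE 0.0558, limma adjusted p = 0.539). Of the mRNAs, mt-Co1, a subunit of cytochrome c oxidase, had overlapping groups (-0.11, SE 0.0805). These genes were picked after their values were seen.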
